A study of Mus musculus with 8 samples.

Results

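The genes that load and carry peptides on major histocompatibility complex (MHC) class II were examined in mouse macrophages grouped as Il19-tdT positive or Il19-tdT negative, Il19 being a cytokine gene of the Il10 family. They are 9 rows of the deposited table of 17823 genes, taken by symbol: H2-Aa, H2-Ab1, H2-Eb1, H2-DMa, H2-DMb1, H2-DMb2, H2-Oa, Cd74 and Ciita. The cells were C57BL/6 bone marrow cells grown into macrophages for 7 days with 20 ng of recombinant M-CSF, then given lipopolysaccharide (LPS) at 1 µg/ml, a bacterial product sensed by Toll-like receptor 4. All libraries share this treatment, and no library without LPS was analysed here. There were 4 libraries of Il19-tdT positive macrophages and 4 of Il19-tdT negative macrophages, numbered 1 to 4 in each group and called biological replicates. How the cells were separated, how long LPS was given, and whether a number marks a mouse or a culture are points not given in the sources used here. The p-values therefore measure the spread between these samples.

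MHC class II molecules are pairs of an alpha and a beta chain that show peptides from the endosome to CD4 T cells. The chains are assembled on the invariant chain, encoded by Cd74, whose remnant is later exchanged for peptide with the help of H2-DM, an exchange that H2-O restrains. Transcription of the whole set depends on Ciita, a coactivator that does not bind DNA itself and is recruited by factors sitting on the X and Y boxes of class II promoters. Macrophages have little Ciita until interferon gamma induces it, whereas dendritic cells and B cells have it constitutively. C57BL/6 mice lack a functional H2-Ea alpha chain gene, so that H2-Eb1 is transcribed in this strain without its usual partner at the cell surface.

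RefSeq promoter sequences (GRCm38.p6, 250 bases before to 50 after a start) were matched for 6 of the 9 genes, all on chromosome 17. Windows of 80 bases ending 12 bases after the Y box are shown for 5 of them, because these boxes are where Ciita is recruited. Capitals mark the letters AACNGATG that end the X box, the Y box letters ATTGG, and the letters TGACGTCA of a cyclic-AMP response element.
H2-Aa, chr17:34287855-34287934, minus strand: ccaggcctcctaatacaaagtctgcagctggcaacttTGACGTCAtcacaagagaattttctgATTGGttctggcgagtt
H2-Eb1, chr17:34305745-34305824, plus strand: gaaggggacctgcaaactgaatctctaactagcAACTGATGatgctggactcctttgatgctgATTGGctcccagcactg
H2-DMb1, chr17:34153067-34153146, plus strand: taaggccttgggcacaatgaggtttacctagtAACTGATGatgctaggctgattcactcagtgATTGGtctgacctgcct
H2-DMb2, chr17:34145096-34145175, plus strand: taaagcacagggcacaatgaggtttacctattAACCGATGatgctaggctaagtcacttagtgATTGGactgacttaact
H2-Oa, chr17:34092273-34092352, plus strand: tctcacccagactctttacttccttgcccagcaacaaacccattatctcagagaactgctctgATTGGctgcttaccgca

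H2-Eb1, H2-DMb1 and H2-DMb2 held the X letters followed on the same strand by the Y letters, with 22 bases between them in H2-Eb1 and 23 in both H2-DMb genes. Searched on both strands of all 32817 promoters with a gap of 10 to 30 bases, this arrangement was present in 0.0213% of them, belonging to 7 genes, of which 5 are named H2. The X letters had been shortened after the promoters were read, so neither the matches nor that share is a test. The X letters alone were in 2.32% of promoters, the Y letters in 37.4%, and TGACGTCA, which is its own reverse complement, in 1.79%. H2-Aa had TGACGTCA and the Y letters without an exact match to the X letters. That does not show that H2-Aa lacks an X box, and whether TGACGTCA lies within one was not examined. H2-Oa had the Y letters only, and H2-DMa had none of the 3 at its first listed start and the Y letters only at its second. Nor do these missing matches show that H2-Oa or H2-DMa lacks an X box. A match is a description of letters, not of binding.

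Within each replicate number, the tdT-positive library had less Ciita than the tdT-negative one. In numbers 1, 2 and 4 the tdT-positive library had 0.221 to 0.603 of the H2-Aa level and 0.272 to 0.566 of the H2-Eb1 level of its tdT-negative partner, and in number 3 the levels were nearly equal. H2-Ab1, H2-DMa and H2-DMb1 had log2 fold changes of -0.25, -0.06 and -0.21 with the number in the model. None of the 8 genes tested passed an adjusted p under 0.05 in edgeR's quasi-likelihood test, with or without the replicate number in the model. Levels are CPM, a gene's counts per 1000000 counts of its library after scaling for library composition. Every log2 fold change sets the tdT-positive group over the tdT-negative group, and errors are SD over 4 libraries or the standard error (SE) of a log2 fold change. In these bulk samples, fewer cells that make a transcript and less of it per cell cannot be told apart.

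The 8 libraries hold 49850537 to 58516454 counts, and a count of 3 corresponds to 0.0490 to 0.0696 CPM in a single library. Intervals from counts cover counting error only. Il19 was at 145 to 234 CPM in the tdT-positive libraries and 9.17 to 17.0 CPM in the tdT-negative ones. Macrophage genes were abundant in both groups: Adgre1 averaged 3596 CPM in the tdT-positive libraries against 3972 in the tdT-negative ones, and Csf1r 2077 against 1945 CPM. tdT-positive replicate 3 stood apart with 141803 CPM of ribosomal RNA (Rn45s), against 3131 to 7465 CPM in the other libraries. tdT-negative replicate 4 had the most stromal RNA, with 2227 CPM summed over 8 stromal markers. Over all genes, 3 of 12610 tested passed without the replicate number (0.0238%, and 0.0159% as lower) and 1998 with it (15.8%).

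Ciita (Entrez 12265, GRCm38 chromosome 16, 10480059 to 10528418, plus strand), the coactivator on which class II transcription depends, was nearly undetected. It had 1, 1, 0 and 5 counts in tdT-positive replicates 1 to 4, against 16, 15, 7 and 36 counts in tdT-negative replicates 1 to 4. Every tdT-negative library lay above every tdT-positive one, an arrangement with the tdT-positive group lower that 5.91% of the 12610 tested genes also showed. Summed over libraries, 7 counts stood against 74, a CPM ratio of 0.101 with an exact 95% counting interval of 0.0391 to 0.218. That ratio was 0.0402 (0.00478 to 0.150, from 2 counts against 74) without tdT-positive replicate 4, and 0.145 (0.0546 to 0.328) without tdT-negative replicate 4. With a mean of 0.0295 ± 0.0358 CPM in tdT-positive libraries, against 0.321 ± 0.205 CPM in tdT-negative ones (SD, n = 4 each), Ciita was below the filter on low counts and was not tested with the other genes. With every gene kept, the fitted log2 fold change was -3.38 (SE 0.56, edgeR adjusted p = 0.00447) under the replicate block, against -3.25 (SE 0.78, adjusted p = 0.0755) without it. With the block and no filter 13.1% of all genes passed. Dexi, a gene on the opposite strand, overlaps the Ciita locus, and the strand setting of the counting was not given in the sources used here.

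H2-Aa (Entrez 14960, chromosome 17, 34282744 to 34287823, minus strand) encodes the alpha chain of I-A, the class II molecule that C57BL/6 cells show. Its level was 9.43, 4.49, 13.8 and 1.21 CPM in tdT-positive replicates 1 to 4, and 15.7, 13.9, 14.3 and 5.47 CPM in the tdT-negative replicates of those numbers. The tdT-positive library was the lower in 4 of 4 numbers, but the groups overlapped, since tdT-positive replicate 3 was near the higher tdT-negative libraries and tdT-negative replicate 4 was low. By number, the CPM ratio was 0.603, 0.324, 0.966 and 0.221. The log2 fold change was -0.77 (SE 0.63, edgeR adjusted p = 0.610) without the replicate number and -1.08 (SE 0.31, adjusted p = 0.0581) with it as a block.

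H2-Eb1 (Entrez 14969, chromosome 17, 34305867 to 34316674, plus strand), the beta chain gene of I-E, ordered the tdT-positive libraries as H2-Aa did. It was at 5.02, 2.49, 8.997 and 1.23 CPM in tdT-positive replicates 1 to 4, against 8.88, 9.18, 8.86 and 4.00 CPM in tdT-negative replicates 1 to 4. The groups overlapped, and an antisense gene, Gm20513, lies across the H2-Eb1 locus. The difference was again near 0 in number 3, where the ratio was 1.016, and large in numbers 2 and 4, where it was 0.272 and 0.306. Its log2 fold change was -0.81 (SE 0.55, edgeR adjusted p = 0.531) without the replicate number and -1.06 (SE 0.30, adjusted p = 0.0567) with it. The DESeq2 Wald test with the same block called H2-Eb1 as lower (log2 fold change -1.09, adjusted p = 0.00307), and edgeR with the block and no filter called both H2-Eb1 (adjusted p = 0.0283) and H2-Aa (adjusted p = 0.0278). Of all genes, the DESeq2 fit called 19.9% and the edgeR fit without a filter 13.1%.

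Cd74 (Entrez 16149, chromosome 18, 60803848 to 60812652, plus strand), the invariant chain gene, had 73.8, 43.9, 117 and 17.99 CPM in tdT-positive replicates 1 to 4. The tdT-negative replicates 1 to 4 had 103, 86.5, 96.4 and 25.9 CPM. Both libraries of number 4 were low, and in number 3 the tdT-positive library was the higher one. The log2 fold change was -0.31 (SE 0.57, edgeR adjusted p = 0.856) without the replicate number and -0.43 (SE 0.18, adjusted p = 0.147) with it. The library with the most Cd74 was tdT-positive replicate 3, which also had the highest H2-Aa and H2-Eb1 of its group and the 141803 CPM of Rn45s. The part of that library's RNA composition in these values was not tested, and without number 3 the blocked log2 fold change was -1.47 for H2-Aa, -1.46 for H2-Eb1 and -0.67 for Cd74 (edgeR adjusted p = 0.0581, 0.0509 and 0.0509).

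**Figure D1:**
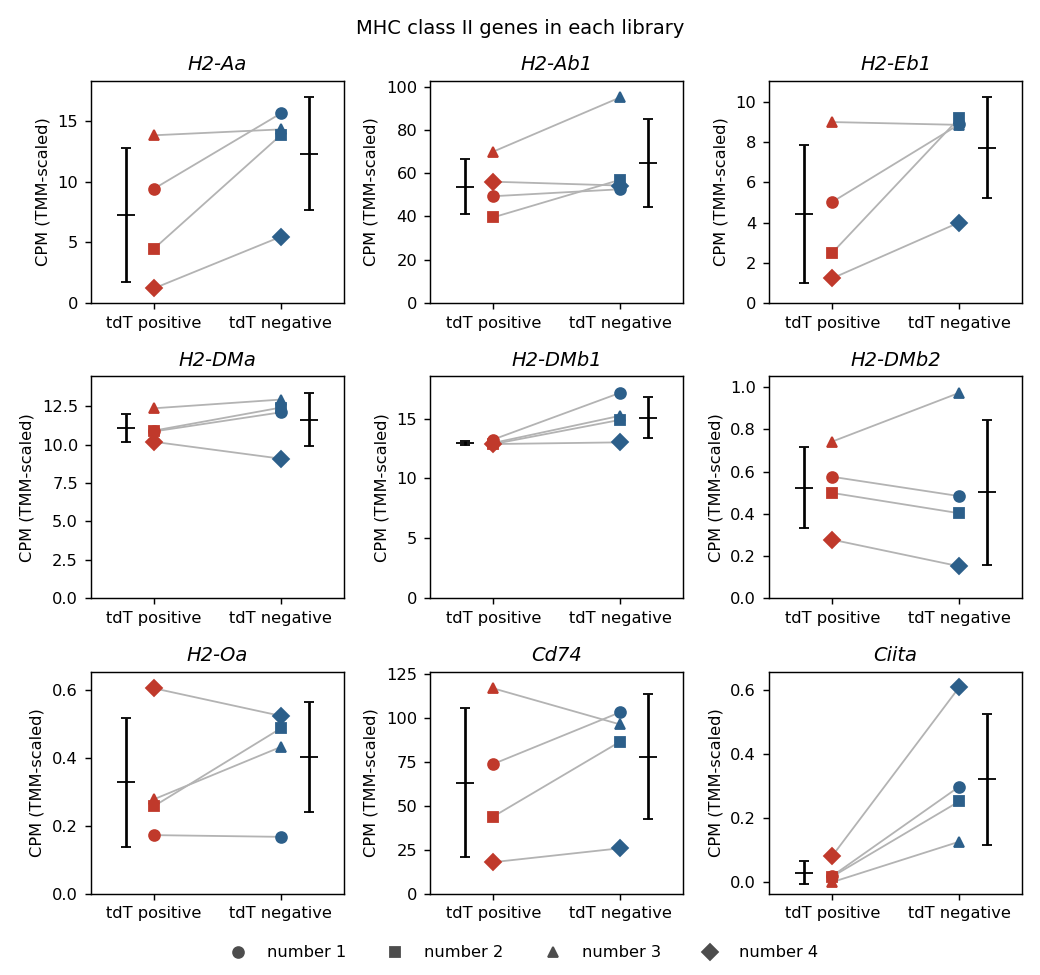
CPM of the 9 genes (vertical axes, from 0) in the 4 tdT-positive (red) and 4 tdT-negative (blue) libraries, with lines joining libraries of the same number and black bars giving mean ± SD. Ciita is the only gene whose groups do not overlap, and the lines of H2-Aa and H2-Eb1 are nearly flat in number 3.

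H2-Ab1 (Entrez 14961, chromosome 17, 34257689 to 34269419, plus strand) encodes the I-A beta chain that pairs with the product of H2-Aa. It was at 49.4, 39.6, 70.0 and 56.1 CPM in tdT-positive replicates 1 to 4, and at 52.6, 56.9, 95.0 and 54.3 CPM in tdT-negative replicates 1 to 4. The groups overlapped, and tdT-negative replicate 3 was far above the other libraries of its group. In number 4, where H2-Aa had a ratio of 0.221, H2-Ab1 had one of 1.03. The log2 fold change was -0.27 (SE 0.23, edgeR adjusted p = 0.638) without the replicate number and -0.25 (SE 0.10, adjusted p = 0.137) with it. H2-Ab1 passed as lower with the block when number 4 was left out (-0.34, SE 0.09, edgeR adjusted p = 0.0297), a fit that called 20.2% of all genes.

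Between libraries the partner chains kept no fixed ratio. In CPM per kilobase of the deposited gene length, H2-Ab1 exceeded H2-Aa by 4.69, 7.90, 4.53 and 41.6 times in tdT-positive replicates 1 to 4, and by 3.01, 3.68, 5.94 and 8.90 times in tdT-negative replicates 1 to 4. The log2 of that ratio had an SD of 1.19 over the 8 libraries. H2-Aa and H2-Eb1 stayed much closer, with H2-Aa at 1.54 to 2.93 times the level of H2-Eb1 per kilobase and an SD of 0.30 on the log2 scale. H2-DMa to H2-DMb1, the partner chains of H2-DM, varied least of the pairs compared, between 0.540 and 0.738 with an SD of 0.15. These ratios describe 8 libraries that share replicate numbers and carry no test.

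**Figure D2:**
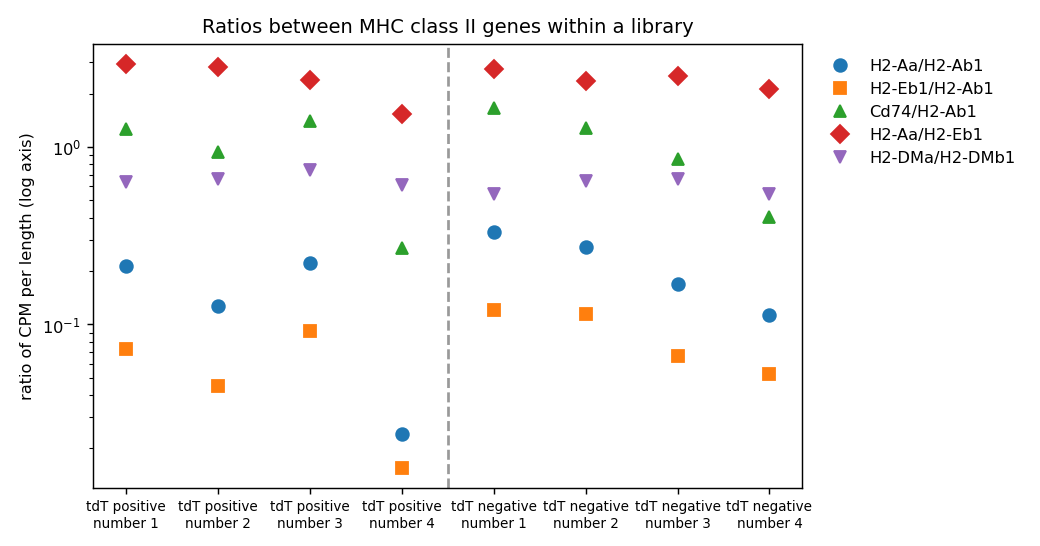
Ratio of CPM per kilobase of gene length between pairs of class II genes (log axis) in each of the 8 libraries, tdT positive to the left of the dashed line. H2-Aa to H2-Ab1 spans 0.0241 to 0.332, whereas H2-Aa to H2-Eb1 stays between 1.54 and 2.93.

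None of the genes of peptide exchange passed. H2-DMa (Entrez 14998, chromosome 17, 34119541 to 34139101, plus strand), the alpha chain of H2-DM, had 10.9, 10.9, 12.4 and 10.2 CPM in tdT-positive replicates 1 to 4, against 12.1, 12.4, 12.9 and 9.08 CPM in tdT-negative replicates 1 to 4. The groups overlapped. Its log2 fold change with the block was -0.06 (SE 0.09, edgeR adjusted p = 0.665). Brd2 and other annotated genes overlap its locus, and reads shared with them cannot be separated here.

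H2-DMb1 (Entrez 14999, chromosome 17, 34153072 to 34160230, plus strand), a beta chain of H2-DM, was at 13.3, 12.9, 12.96 and 12.9 CPM in tdT-positive replicates 1 to 4, against 17.1, 14.9, 15.2 and 13.02 CPM in tdT-negative replicates 1 to 4. It had the smallest SD relative to its mean of the 9 genes in the tdT-positive libraries (0.180 CPM), the groups overlapped, and the tdT-positive library was the lower in 4 of 4 numbers by a small margin. The log2 fold change with the block was -0.21 (SE 0.08, edgeR adjusted p = 0.129), and -0.26 (adjusted p = 0.0436) without number 4, where 20.2% of all genes were called.

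H2-DMb2 (Entrez 15000, chromosome 17, 34143307 to 34151555, plus strand), the neighbouring second beta chain gene, had 30, 29, 32 and 17 counts in tdT-positive replicates 1 to 4, against 26, 24, 54 and 9 counts in tdT-negative replicates 1 to 4. That was a mean of 0.523 ± 0.193 CPM in tdT-positive libraries, against 0.503 ± 0.343 CPM in tdT-negative ones (SD, n = 4 each), and the sign was not stable (with the block, log2 fold change 0.19, SE 0.27, edgeR adjusted p = 0.669). The GENCODE transcripts of H2-DMb1 and H2-DMb2 are 94.2% identical over 1246 aligned bases, with an identical run of 221 bases, so the split of reads between the 2 genes is uncertain. H2-Oa (Entrez 15001, chromosome 17, 34092340 to 34095234, plus strand), the alpha chain of the H2-DM inhibitor H2-O, had 9, 15, 12 and 37 counts in tdT-positive replicates 1 to 4, against 9, 29, 24 and 31 counts in tdT-negative replicates 1 to 4 (with the block, log2 fold change -0.32, SE 0.30, adjusted p = 0.501). The groups of both genes overlapped, and an antisense gene, BC051537, overlaps the H2-Oa locus.

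**Figure D3:**
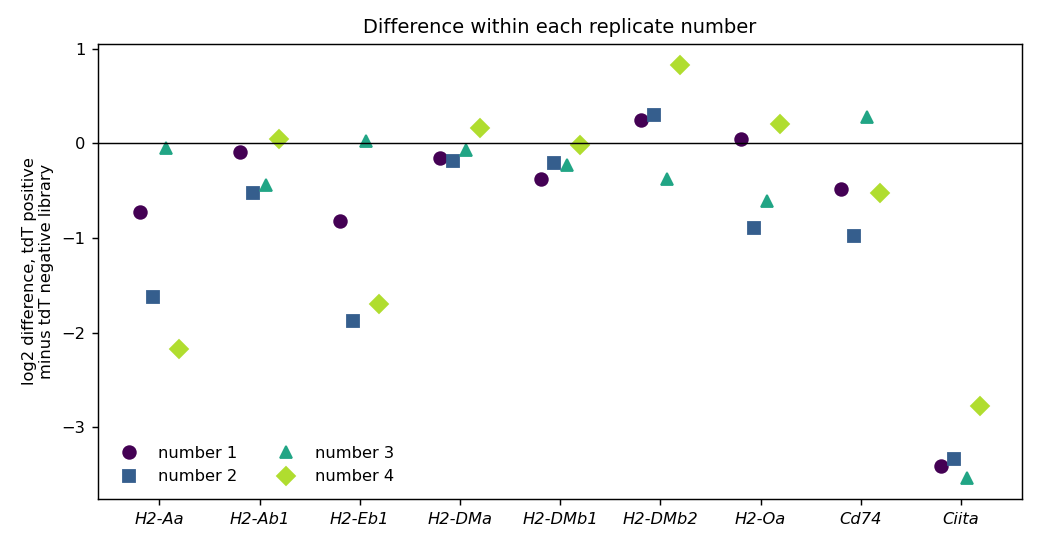
Difference in log2 CPM (0.5 counts added) between the tdT-positive and tdT-negative library of each number, for the 9 genes. Ciita lies between -3.54 and -2.78 in all 4 numbers, while H2-Aa runs from -2.17 in number 4 to -0.05 in number 3.

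Per kilobase, the order of levels in the tdT-positive libraries was H2-Ab1 (45.1 ± 10.7) and Cd74 (44.6 ± 30.01), then H2-DMb1 (10.1 ± 0.140), H2-Aa (6.78 ± 5.19), H2-DMa (6.68 ± 0.554), H2-Eb1 (2.66 ± 2.05), H2-DMb2 (0.666 ± 0.245), H2-Oa (0.313 ± 0.181) and Ciita (0.00492 ± 0.00597), in CPM per kilobase. H2-Ab1 and Cd74 differed by less than the larger of their SDs, as did H2-DMb1 and H2-Aa, and H2-Aa and H2-DMa. In the tdT-negative libraries Cd74 stood at 55.1 ± 25.0 and H2-Ab1 at 54.2 ± 17.0, ahead of H2-DMb1 at 11.7 ± 1.32 and H2-Aa at 11.5 ± 4.34, with the rest in the same order.

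Of the 9 genes, 8 passed the filter on low counts and Ciita did not. Without the replicate number none of the 8 was called by edgeR, by DESeq2 or at an unadjusted p under 0.05, which 16.3% of all genes reached. With the block none was called by edgeR and 1 by DESeq2, against 15.8% and 19.9% of all genes. In that edgeR fit 5 of the 8, all lower in tdT-positive libraries, had an unadjusted p under 0.05. Of all genes 32.7% did so in either direction and 16% as lower. The median log2 fold change of the 8 genes with the block was -0.29, and that of all 12610 genes 0.01. The tdT-positive library was the lower in all 4 numbers for 2 of the 8 (25.0%), and for 19.6% of all genes.

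The rest of the pathway was measured from a list of 32 genes, of which 30 were tested. With the block 1 rose and 1 fell, against 8.03% and 7.81% of all genes, and without it none was called and 2 had an unadjusted p under 0.05 (edgeR). Among 7 factors of the class II promoter, Nfya, a subunit of the Y box factor NF-Y, rose, at 148, 156, 170 and 149 CPM in tdT-positive replicates 1 to 4, against 133, 125, 126 and 106 CPM in tdT-negative replicates 1 to 4 (log2 fold change 0.35, SE 0.07, edgeR adjusted p = 0.0202 under the block, 0.113 without it). Its groups did not overlap, with the tdT-positive group higher, as for 5.47% of all genes. Leaving out number 2 or number 3 ended the call (adjusted p = 0.0874 and 0.0667). Rfx5, which binds the X box, stood at 0.21 on the log2 fold change scale (SE 0.08, adjusted p = 0.0994) with the block.

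Irf1, an interferon gamma-induced transcription factor gene that acts upstream of Ciita, averaged 103 CPM in tdT-positive libraries against 99.0 CPM in tdT-negative ones (log2 fold change 0.07, adjusted p = 0.450).

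None of 9 processing enzymes and inhibitors passed with the block. Ctsd, a lysosomal aspartic protease and the most abundant of them per kilobase, averaged 3154 ± 498 CPM in tdT-positive libraries, against 3116 ± 231 CPM in tdT-negative ones. Ctss, which trims the invariant chain, was at 1168 ± 166 against 1251 ± 241 CPM (log2 fold change -0.09, SE 0.09, edgeR adjusted p = 0.538). None of 6 trafficking and turnover genes passed either. Cd63, a tetraspanin gene of endosomes and the most abundant of these per kilobase over all libraries, was at 110.0 ± 7.30 CPM in tdT-positive libraries against 128 ± 15.7 CPM in tdT-negative ones (log2 fold change -0.21, SE 0.07, adjusted p = 0.0863 with the block). March1, the ubiquitin ligase that removes class II from the surface, was at 488 ± 87.3 CPM in tdT-positive libraries against 440 ± 117 CPM in tdT-negative ones (adjusted p = 0.185 with the block). Of the other class II region genes in the table, H2-Ob, the beta chain of H2-O, had 0.688 ± 0.0915 against 0.740 ± 0.212 CPM and did not pass, and H2-Eb2 was below the filter.

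**Figure D4:**
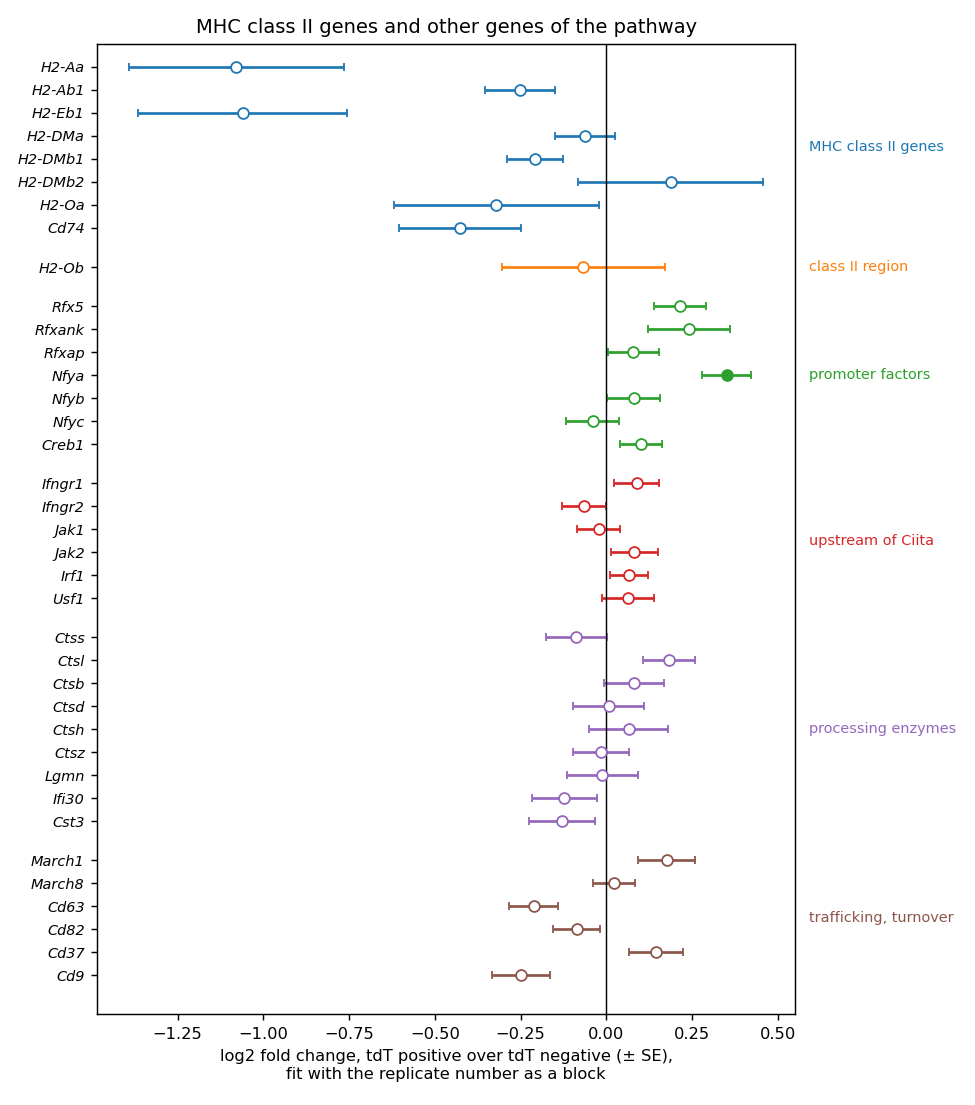
Log2 fold change (tdT positive over tdT negative) ± SE from the model with the replicate block, for the 8 class II genes tested and all but 1 of 30 other tested genes of the pathway, with filled points where the adjusted p is under 0.05. H2-Aa (-1.08) and H2-Eb1 (-1.06) lie farthest from 0 with wide errors, and Nfya (0.35) is the only filled point among the genes shown.

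Several marker genes of dendritic cells, which express class II constitutively, had lower levels in tdT-positive libraries. Of 13 markers, 7 were tested and 5 fell with the block, against 7.81% of all genes. The other 2 tested, Itgax (log2 fold change -0.17, edgeR adjusted p = 0.387) and Batf3 (0.19, adjusted p = 0.663, the opposite sign), did not pass. Ccl22, a chemokine gene of mature dendritic cells and activated macrophages, was at 1.19, 1.91, 0.696 and 2.53 CPM in tdT-positive replicates 1 to 4, against 12.99, 22.5, 2.84 and 14.0 CPM in tdT-negative replicates 1 to 4 (log2 fold change -2.95, SE 0.26, edgeR adjusted p = 0.00455). Fscn1, an actin-bundling protein gene, had a log2 fold change of -1.94, Ccr7 -1.75, Ccl17 -2.56 and Cd24a -0.91. Without the block none of the 7 was called and 5 had an unadjusted p under 0.05, and with the block but without number 1, 2 or 3 the count was 2, namely Ccl22 and Fscn1. The most abundant marker per kilobase over all libraries, Fscn1, was at 6.90 ± 2.53 CPM in tdT-positive libraries against 25.7 ± 5.30 CPM in tdT-negative ones. The summed level of the 13 markers was 22.9 to 28.7 CPM in tdT-positive libraries against 45.2 to 76.5 CPM in tdT-negative ones. Fscn1 and Ccl22 (mean 1.58 against 13.1 CPM) made up most of the difference between the group means of that sum. Itgax, also a large part of the sum, averaged 12.7 against 14.2 CPM. The 6 markers below the filter averaged at most 0.191 CPM in either group and did not share a direction. Flt3 averaged 0.0170 CPM in tdT-positive libraries against 0.0303 CPM in tdT-negative ones, and Zbtb46, a transcription factor gene of classical dendritic cells, 0.0809 against 0.191 CPM. Clec9a, a receptor gene of cross-presenting dendritic cells, had 12, 7, 4 and 18 counts in tdT-positive replicates 1 to 4, against 3, 4, 2 and 2 counts in tdT-negative replicates 1 to 4, the opposite direction. In number 3, whose tdT-positive library had 141803 CPM of Rn45s, Ccl22 and Fscn1 were lower in that library and H2-Aa and H2-Eb1 were nearly equal. The part of dendritic cells in the class II values was not tested.

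Of 11 B cell markers, 4 were tested, and with the block 1 fell and 1 rose, against 7.81% and 8.03% of all genes. With the block Ebf1, a transcription factor gene of the B lineage, fell (log2 fold change -3.39, SE 0.57, edgeR adjusted p = 0.0128) and Cd22, a lectin receptor gene of B cells, rose (0.96, SE 0.23, adjusted p = 0.0336). Ebf1 did not pass without number 3 (adjusted p = 0.0512), nor Cd22 without number 1, 2 or 3 (adjusted p between 0.0760 and 0.124), and without the block neither was called. Cd79a, a defining B cell marker, averaged 0.00408 CPM in tdT-positive libraries, against 0.00420 CPM in tdT-negative ones. Blnk, which macrophages also express, made up most of the summed level of 126 to 151 CPM in tdT-positive libraries, against 134 to 157 CPM in tdT-negative ones. Stromal, neutrophil and monocyte markers differed between the groups too. With the block 7 of 8, 4 of 5 and 4 of 7 tested markers fell, against 7.81% of all genes. Without the block 0, 0 and 1 were called, against 0.0238% of all genes. Their summed levels were 60.2 to 147 CPM against 248 to 2227 CPM for stromal markers, 3.18 to 6.81 against 14.4 to 274 CPM for neutrophil markers, and 98.0 to 173 against 213 to 395 CPM for monocyte markers, in tdT-positive against tdT-negative libraries. Of 9 macrophage markers 2 rose with the block, against 8.03% of all genes, and none was called without it. Mertk was among the 2 (log2 fold change 0.73, edgeR adjusted p = 0.0109 with the block). The part of any of these lists in the class II values was not tested.

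The genes whose pattern over the 8 libraries was most like that of H2-Aa, H2-Ab1, H2-Eb1 and Cd74 were sought among 9183 genes by the root mean square difference between centred log2 CPM values. Il4i1, an L-amino acid oxidase gene, was the closest at 0.33, against a median of 0.82 over these genes and 0.70 for H2-Ab1 itself. Il4i1 was at 25.2, 15.7, 26.4 and 11.4 CPM in tdT-positive replicates 1 to 4, against 46.6, 32.1, 39.8 and 21.4 CPM in tdT-negative replicates 1 to 4. It fell with the block (log2 fold change -0.85, SE 0.08, edgeR adjusted p = 0.00648, and 0.229 without it) and stayed past the threshold without any single number (adjusted p between 0.000979 and 0.0319). Il4i1 was picked on these same libraries, for likeness to a pattern lower in the tdT-positive library of each number. Its call as lower therefore carries no separate weight. Gm21948 came next at 0.34, with counts close to those of Il4i1 in every library, so that the 2 rows may share reads, and Nup62 and Atf5 overlap the Il4i1 locus. Cebpd, Hdc and Tspan4 followed at 0.43 each. The pattern itself, the mean of the 4 centred values, was 0.10, -0.69, 0.74 and -1.61 in tdT-positive and 0.63, 0.56, 0.79 and -0.52 in tdT-negative replicates 1 to 4.

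Across numbers, H2-Aa, H2-Eb1 and Cd74 did not rank the libraries as Ciita did. H2-Oa, with few counts, was highest in number 4 of each group (0.604 CPM in the tdT-positive and 0.523 CPM in the tdT-negative library), as Ciita was. tdT-negative replicate 4 had the highest Ciita of all libraries, at 0.608 CPM, and the lowest H2-Aa, H2-Eb1 and Cd74 of its group. tdT-positive replicate 3, the library with 141803 CPM of Rn45s, had no Ciita count and the highest H2-Aa, H2-Eb1 and Cd74 of its group. The part of Ciita in these levels was not tested. With 0 to 36 counts of Ciita in a library, its level is known only within a wide counting error.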

How the data were processed

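The authors deposited whole-number counts per gene with Entrez identifiers, symbols and gene lengths. The submitters' processing notes name STAR and mm10. Versions, counting tool, annotation and the use of strand were not given in the sources used here. The library kit for messenger RNA keeps strand, per the labels' protocols. Columns were matched through the samples' descriptions and groups came from the titles. No library was a repeat of another.

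Genes were filtered (edgeR 4.0.16, minimum count 10, total 15), scaled by TMM and tested with the quasi-likelihood test, with the group as the only term and Benjamini-Hochberg adjustment over 12610 genes (threshold 0.05). The SE is the log2 fold change divided by the root of F. Libraries of the same number deviated together from their group means (r = 0.60, 0.25, 0.59 and 0.55 for numbers 1 to 4). The highest r with an opposite-group library of another number was 0.13, 0.24, -0.01 and 0.24. Number 2 thus stood hardly above a mismatched pair. The fit with the number as a block is therefore given beside the fit without it. DESeq2 1.42.0, other scalings and filters, and left-out libraries were alternatives. The code was tested on simulated counts. Positions are from GENCODE M21 and promoters from RefSeq. The X box letters were shortened after the promoters had been read.

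The genes and lists were chosen with earlier results of these data known. Named were all 9 genes, list members passing in either fit, the most abundant of each list, and the 5 genes of closest pattern whose mean log2 CPM was 2 or more. Rfx5, Irf1, Ctss, March1, Flt3, Zbtb46, Clec9a, Itgax, Batf3 and Cd79a were named after their values were seen. Of the lists, H2-Ea-ps, Fcer2a and Ighm had no row by that symbol. Values of some list genes are not reported here.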

Additional observations from a re-analysis of the deposited data

Results flagged for a closer look

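Among the 9 genes in 18 groups of 4 libraries, 2 held a library far from the other 3, by a gap over range above 0.829. Chance gives about 1 such group in 20. H2-Ab1 was at 95.0 CPM in tdT-negative replicate 3, where the nearest library of that group had 56.9 CPM. H2-Eb1 was at 4.00 CPM in tdT-negative replicate 4, where the nearest had 8.86 CPM.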

How the results depend on the processing

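Calls over all genes depended on the model. In place of 3 genes, 216 were called without a filter, 921 by DESeq2, 1998 with the replicate block, 1990 and 1418 with the block and DESeq2 size factors or library totals, 2504 with the block and DESeq2, and 2338 with the block and no filter, an alternative chosen after seeing the data. With the block, 50.7% of calls were higher, or 29.8% with library totals. Leaving out 1 library gave 2 to 456 calls, and both libraries of a number with the block 1023, 347, 355 and 2535 for numbers 1 to 4. For the 9 class II genes the count was 0 except for 1 with the block and DESeq2, 3 with the block and no filter (H2-Aa, H2-Eb1 and Ciita), 1 without number 3 (Ciita, adjusted p = 0.0435) and 2 without number 4 (H2-Ab1 and H2-DMb1). It was 0 in all fits leaving out 1 library, and 0 to 2 leaving out a number with the block. Pathway calls, 0 in the unblocked fit, were 1 with DESeq2, 2 with the block under all 3 scalings, 4 with DESeq2 and the block, 1 with the block and no filter, and 0 to 1 without a number. Dendritic cell calls were 2 without a filter, 4 with DESeq2, 5 with the block under each scaling, test and filter, 0 to 1 without a library and 2 to 5 without a number. B cell calls were 1, 2 and 2 without a filter, with DESeq2 and with the block (1 with library totals), 0 to 1 without a library and 0 to 2 without a number. The signs of H2-DMb2 and Cd74 were not stable: H2-DMb2 had a log2 fold change of -0.0115 with library totals and between -0.25 and 0.59 without a library (-0.15 without tdT-positive replicate 3, -0.04 and -0.25 without tdT-negative replicates 2 and 4), and Cd74 between -0.78 and 0.00906, above 0 without tdT-positive replicate 4. Over 22 alternatives H2-Aa kept its sign, between -1.47 and -0.41 (adjusted p from 0.0278 to 0.825), as did H2-Eb1, between -1.46 and -0.49 (adjusted p from 0.00307 to 0.765). The causes were not tested. Depth limits Ciita, H2-Oa and H2-DMb2.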
